A study of Mus musculus with 8 samples.

Results

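RNA of 10 genes of antigen presentation and interferon induction was measured in mouse blastocysts of 3 Isca2 genotypes. The genes were taken by symbol as a fixed set: B2m, H2-K1 and H2-D1 (MHC class I), Tap1 and Tapbp (peptide loading), Psmb8 and Psmb9 (immunoproteasome), and Ifi27, Ubd and Ube2l6 (interferon-induced genes, the last pair acting with ubiquitin-like modifiers). They are 10 of 55471 genes in the deposited tables, and all 10 were found. Of these, 9 passed the filter on low counts and were tested among 13953 genes, while Psmb8 did not pass.

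The study collected blastocysts at embryonic day 4.5 from superovulated mothers that carried 1 mutant copy of Isca2 and were mated with males of the same genotype. Isca2 encodes a mitochondrial protein of iron-sulfur cluster assembly. The groups were embryos with the G77S form on both copies (Isca2 G77S/G77S, called G77S, n = 3 libraries), embryos with no intact copy (Isca2 -/-, called KO, n = 2) and wild type (WT, n = 3). All groups had the same hormone treatment and culture, and their RNA was amplified with a single-cell kit for full-length mRNA. The labels do not give the strain, the cross behind the G77S embryos, their sex or the number of embryos per library. Whether replicate libraries stem from different litters is likewise not stated, so each p-value reflects library-to-library spread, part of which may be technical.

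MHC class I molecules are made of a heavy chain and the light chain beta-2 microglobulin, and they carry peptides to the cell surface for T cells and natural killer cells to read. The peptides come from the proteasome, enter the endoplasmic reticulum through the TAP transporter and are loaded there with the help of tapasin. Interferons raise nearly every step of this route, including the catalytic subunits that turn the proteasome into the immunoproteasome. Cells of the early embryo and mouse embryonic stem cells are known for little classical MHC class I and for a weak interferon response.

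Libraries held 10323965 to 23842619 expected counts, the estimated counts of the quantification. Between 14093 and 17534 genes had at least 1 count. The deposited length minus effective length, which follows the fragment length, was 181.4 to 185.1 bases in G77S and 242.7 to 291.1 bases in the KO and WT libraries. A preparation batch and the G77S genotype therefore cannot be told apart, and this applies to each comparison with G77S. Isca2 itself had 89.1, 105 and 133 CPM in G77S, 4.84 and 6.20 CPM in KO, and 86.9, 173 and 154 CPM in WT. Both KO libraries lay below all others (log2 fold change against WT -4.64, SE 0.41, adjusted p = 0.00387). CPM is the count scaled to a common library total after TMM scaling between libraries, and it is used to compare a gene between libraries. TPM also corrects for gene length and is used to compare genes.

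The 10 genes did not move as a block. Psmb9 and H2-D1 were lowest in KO, Ubd and Ube2l6 were highest in KO, H2-K1 was highest in G77S and Ifi27 was lowest there. In KO against WT, 0 of 9 tested genes were called at an adjusted p under 0.05 by edgeR's quasi-likelihood test, where 0.122% of all genes tested were called (0.0788% higher, 0.043% lower). An unadjusted p under 0.05 was reached by 5 of the 9 (13.0% of all genes), and DESeq2 called 5 of them, where it called 5.19% of all genes with an adjusted p. The KO and WT libraries did not overlap for 4 genes that were higher in KO (13.1% of all genes) and for 3 that were lower (12.5%). Ubd is among the 5 by unadjusted p, the 5 by DESeq2 and the 4 higher genes. Ubd passed the low-count filter through KO alone, so its place in these counts is partly set by the filter. In G77S against WT, 1 of 9 was called higher and 0 lower, where 3.39% of all genes were called (1.3% higher, 2.09% lower). Unadjusted p-values under 0.05 were found for 4 (20.0% of all genes), and DESeq2 called 3 (11.8%). The libraries of G77S and WT did not overlap for 2 higher genes (17.2%) and 2 lower ones (11.8%). In G77S against KO, 1 was called higher and 2 lower, where 4.19% of all genes were called (1.76% higher, 2.43% lower). Ubd was among the lower ones, with the same limit from the filter. Unadjusted p-values under 0.05 were found for 4 (20.7% of all genes), and DESeq2 called 3 (13.3%). Their libraries did not overlap for 3 higher genes (24.9%) and 3 lower ones (20.0%). The comparisons share groups, so they are not independent of each other. Median log2 fold changes of the 9 were -0.05 in KO against WT, 0.63 in G77S against WT and 0.01 in G77S against KO, beside -0.06, 0.03 and 0.10 over all genes tested.

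**Figure D1:**
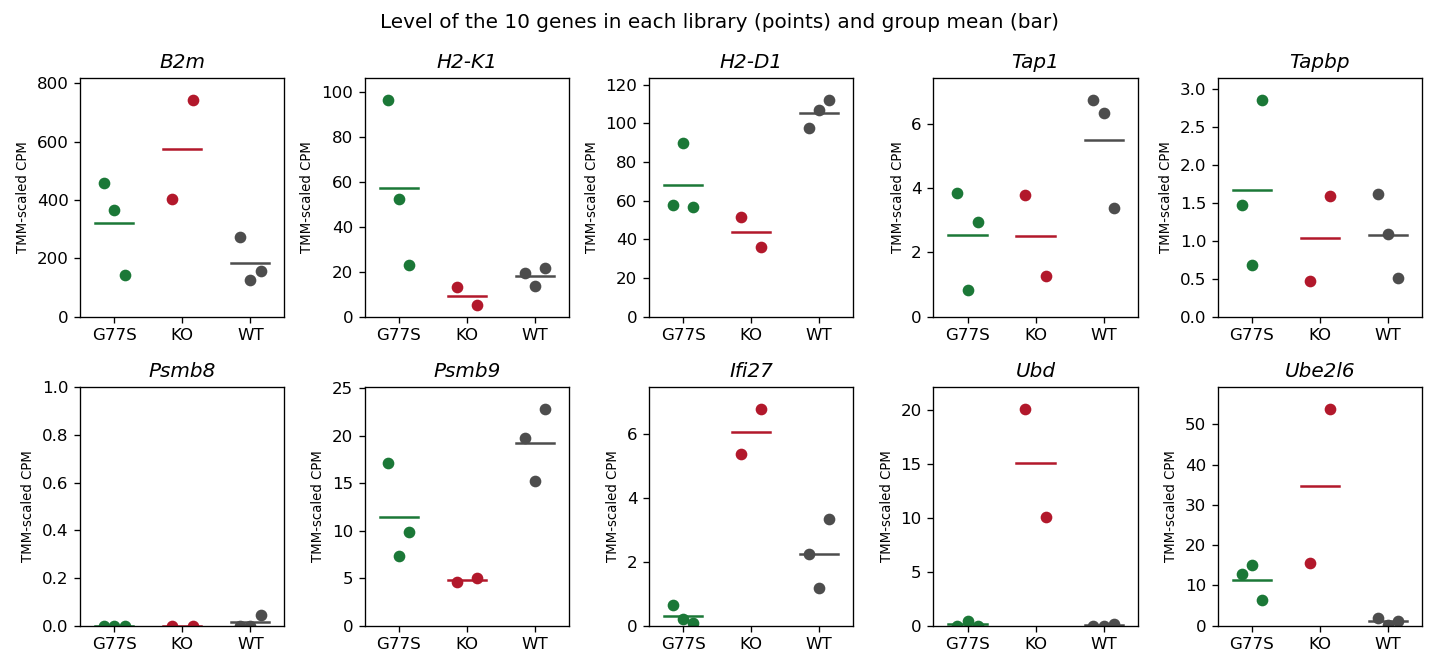
TMM-scaled CPM (vertical axis, linear, a scale per gene) of each gene in the G77S, KO and WT libraries, with 1 point per library and a bar at the group mean. Ubd and Ube2l6 reach their highest values in KO, H2-D1 and Psmb9 in WT, and H2-K1 in G77S.

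B2m, which encodes the class I light chain, was the most abundant of the 10 genes in every group. Its mean was 467 ± 223 TPM in G77S (SD, n = 3), 632 ± 204 TPM in KO (n = 2) and 247 ± 142 TPM in WT (n = 3), above at least 95.3% of the genes tested. By library it had 457, 364 and 144 CPM in G77S, 405 and 743 CPM in KO, and 273, 126 and 156 CPM in WT. Both KO libraries lay above the 3 WT libraries, while G77S replicate 3 fell within the WT range. The log2 fold change was 1.63 in KO against WT (SE 0.47, adjusted p = 0.186) and 0.80 in G77S against WT (SE 0.43, adjusted p = 0.33), so neither passed, although DESeq2 called B2m higher in KO.

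B2m occupies chromosome 2, 122147686 to 122153083, plus strand (GRCm38, GENCODE), wholly inside the span of Patl2 on the other strand. The labels name no strand-marking step, so reads of the pair may be shared, although the expected counts of both were whole numbers in all 8 libraries. Patl2, known for a role in oocytes, had 705, 793 and 248 counts in G77S, 561 and 1224 in KO, and 547, 248 and 150 in WT. B2m had 6532, 5349 and 1657 counts in G77S, 6851 and 14023 in KO, and 4900, 1269 and 3370 in WT. Patl2 was highest in the same KO library as B2m, and its part in the B2m values was not tested. The upstream region of B2m (RefSeq, GRCm38.p6, chr2:122147492-122147581, plus strand) is shown because it held the only match among 10 windows of 9 of these genes, Ifi27 having none, to the interferon-stimulated response element, searched on both strands as TTTC, any 2 bases and TTTC. Capitals mark matches to that motif (GAAACTGAAA, first base at -139 from the start) and to the NF-kB core.

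B2m: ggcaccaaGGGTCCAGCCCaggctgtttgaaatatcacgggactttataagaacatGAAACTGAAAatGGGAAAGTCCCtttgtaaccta

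The response element occurred in 3.44% of 32851 RefSeq promoter windows, each from 250 bases before to 50 bases after a start. The NF-kB core, searched on both strands as GGG, any 5 bases and CC, occurred in 50.8% of them, and neighbouring matches can overlap. A match describes letters only.

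The classical heavy chains H2-K1 and H2-D1, which present peptides to CD8+ T cells, differed in their pattern. H2-K1 had 96.5, 52.6 and 23 CPM in G77S, 13.2 and 4.98 CPM in KO, and 19.2, 13.4 and 21.8 CPM in WT. All G77S libraries lay above all KO and WT libraries, although G77S replicate 3 was close to WT replicate 3. H2-K1 was higher in G77S than in KO, at 57.4 ± 37.0 CPM (SD, n = 3) against 9.07 ± 5.79 CPM (n = 2), and the log2 fold change reached 2.66 (SE 0.65, adjusted p = 0.0467). That call was lost without any of 6 libraries, with an adjusted p of 0.0626 without WT replicate 2, 0.0568 without WT replicate 3, 0.0805 without KO replicate 1, 0.242 without KO replicate 2, 0.15 without G77S replicate 1 and 0.116 without G77S replicate 2. In the fit of only these 2 groups the adjusted p was 0.0546. The G77S log2 fold change over WT was 1.66 (SE 0.53, adjusted p = 0.111), a difference that DESeq2 called, and in KO it was -1.0 (SE 0.60, adjusted p = 0.518).

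H2-D1 had 57.5, 90.0 and 56.5 CPM in G77S, 51.7 and 35.8 CPM in KO, and 97.3, 107 and 112 CPM in WT. The WT libraries were the tightest group, and every G77S and KO library lay below them. Relative to WT the log2 fold change came to -0.63 in G77S (SE 0.27, adjusted p = 0.221) and -1.27 in KO (SE 0.31, adjusted p = 0.152). Neither passed in edgeR, and DESeq2 called H2-D1 lower in KO.

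As a ratio within a library, H2-K1 over H2-D1 in TPM was 3.55, 1.36 and 0.896 in G77S, 0.516 and 0.373 in KO, and 0.507, 0.318 and 0.464 in WT. H2-D1 was thus the more abundant heavy chain in every KO and WT library, and H2-K1 in G77S replicates 1 and 2. Both heavy chains together amounted to 20.8%, 20.9% and 26.8% of the B2m TPM in G77S, 6.20% and 2.27% in KO, and 17.3%, 37.6% and 35.4% in WT. The KO libraries held the least heavy-chain RNA per B2m RNA, with B2m high and both heavy chains low in the same libraries.

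H2-K1 (chromosome 17, 33996017 to 34000347, minus strand) and H2-D1 (chromosome 17, 35262730 to 35267499, plus strand) are close paralogs. The quantification can split reads that match more than 1 gene. The expected counts of both were whole numbers in all 8 libraries, so these values show no read split between them. Whether reads of 1 paralog were assigned to the other was not tested. Class I heavy chains also differ in sequence between mouse strains. A stretch upstream of each start (RefSeq, GRCm38.p6) is shown because it is shared by genes whose RNA differed in pattern. The H2-K1 stretch is chr17:34000446-34000475 on the minus strand, from -128 to -99. The H2-D1 stretch is chr17:35262906-35262935 on the plus strand, from -188 to -159, and a longer GENCODE transcript of H2-D1 covers it. Capitals mark NF-kB core matches.

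H2-K1: tGGGGAAGCCCagggctGGGGATTCCCCat
H2-D1: tGGGGAAGCCCagggctGGGGATTCCCCat

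The printed stretches agree at 30 of 30 bases, and 96 of 100 aligned bases around them are the same. Neither window held the response element or the gamma-activated site, searched as TTC, any 3 bases and GAA.

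**Figure D2:**
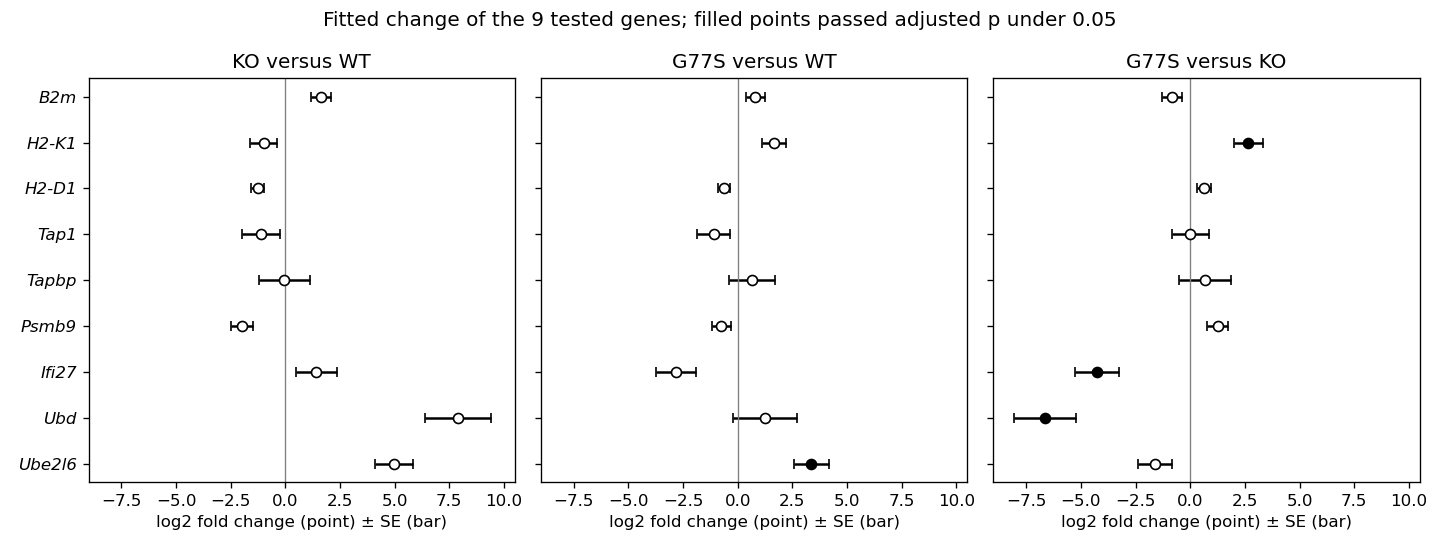
Log2 fold change (horizontal axis, point) with its standard error (bar) for the 9 tested genes in KO against WT, G77S against WT and G77S against KO. Filled points passed an adjusted p of 0.05: Ube2l6 in the middle panel, and H2-K1, Ifi27 and Ubd in the right panel.

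Both peptide-loading genes were scarce, and neither was called in any comparison. Tap1, a subunit of the peptide transporter, had 3.85, 0.816 and 2.95 CPM in G77S, 3.78 and 1.27 CPM in KO, and 6.75, 6.35 and 3.38 CPM in WT. WT replicates 1 and 2 were the highest, and WT replicate 3 lay within the range of the other groups. Relative to WT the log2 fold change came to -1.11 in G77S (SE 0.77, adjusted p = 0.469) and -1.12 in KO (SE 0.88, adjusted p = 0.651). Tap2, the other subunit of the transporter and no member of the set, had 0 counts in all 8 libraries. Tapbp, encoding tapasin, had 1.47, 0.680 and 2.86 CPM in G77S, 0.472 and 1.59 CPM in KO, and 1.62, 1.09 and 0.510 CPM in WT. These ranges overlap throughout, on 8.24 to 33.11 expected counts per library, and no difference of this gene passed the test. Tapbp (chromosome 17, 33915899 to 33929292, plus strand) shares 3422 bases with Zbtb22 on the same strand and 1207 with Gm19412 on the opposite strand. Tapbp and Gm19412 both had fractional expected counts in G77S replicates 1 and 3 and in both KO libraries, while those of Zbtb22 were whole numbers. In KO replicate 1, Tapbp had 8.24 counts and Gm19412 had 8.76. The part of Gm19412 in the Tapbp values was not tested.

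The immunoproteasome subunits Psmb8 and Psmb9 were scarce beside the constitutive subunits they replace. Psmb8, which replaces Psmb5, had 1 count in WT replicate 3 and 0 counts in the other 7 libraries, where 3 counts, the limit that a count of 0 allows, correspond to at most 0.298 CPM. Psmb5 stood at 760.06, 692.30 and 532.12 TPM in G77S, 308.19 and 329.09 TPM in KO, and 356.87, 378.59 and 352.12 TPM in WT. Psmb8 (chromosome 17, 34197721 to 34201454, plus strand) held a gamma-activated site match at -97, a motif found in 8.3% of promoter windows.

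Psmb9, which replaces Psmb6, was the immunoproteasome member with measurable RNA. It had 17.1, 7.28 and 9.89 CPM in G77S, 4.61 and 4.98 CPM in KO, and 19.7, 15.2 and 22.8 CPM in WT. The KO libraries lay below all others, and G77S replicate 1 lay within the WT range. Its log2 fold change in KO over WT came to -2.00 (SE 0.51, adjusted p = 0.156), in G77S against WT -0.75 (SE 0.43, adjusted p = 0.357), and in G77S against KO 1.25 (SE 0.50, adjusted p = 0.186). DESeq2 called Psmb9 lower in KO than in WT.

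Relative to Psmb6, Psmb9 TPM was 0.95%, 0.518% and 0.789% in G77S, 0.390% and 0.328% in KO, and 2.01%, 1.07% and 1.69% in WT. By this share every G77S and KO library lay below every WT library. The third pair differed: Psmb10 was 11.8%, 7.01% and 6.51% of Psmb7 TPM in G77S, 3.16% and 14.5% in KO, and 6.72%, 6.20% and 6.32% in WT, with the KO libraries at both ends. Psmb6 in TPM was 1957.25, 1844.58 and 1663.27 in G77S, 1068.96 and 1298.86 in KO, and 1110.90, 1213.90 and 1216.88 in WT. Psmb6 and Psmb5 were thus higher in every G77S library than in every KO and WT library on the TPM scale, while Psmb7 overlapped between G77S and WT. On that scale the log2(TPM + 1) median of all genes tested was shifted by 0.23 in G77S against WT and by 0.34 against KO. On the CPM scale the log2 fold change of Psmb6 in G77S over WT came to 0.43 (SE 0.22, adjusted p = 0.295) and that of Psmb5 0.65 (SE 0.22, adjusted p = 0.131).

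**Figure D3:**
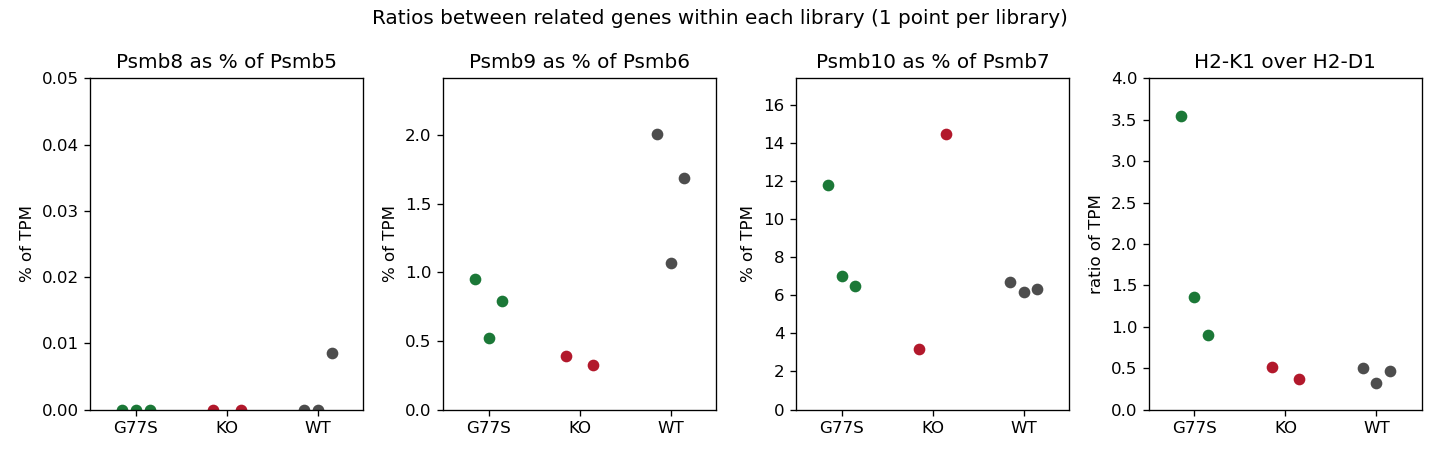
TPM of each immunoproteasome subunit as a percentage of the constitutive subunit it replaces, and the H2-K1 over H2-D1 TPM ratio, in G77S, KO and WT (1 point per library, linear axes). Psmb8 is at or near 0 throughout, Psmb9 is highest in WT, and H2-K1 over H2-D1 exceeds 1 in 2 G77S libraries.

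Tap1 and Psmb9 are neighbours that start back to back on chromosome 17 (Tap1 34187553 to 34197225 on the plus strand, Psmb9 34181987 to 34187764 on the minus strand, 212 bases shared). Their RefSeq promoter windows share 275 of 300 bases. A stretch between the starts (chr17:34187479-34187508, GRCm38.p6, read on the Tap1 strand from -77 to -48) is shown because it belongs to both genes, and a longer GENCODE transcript of Psmb9 covers it. Capitals mark NF-kB core matches.

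Tap1 and Psmb9: aGGGTCCTGCCCtcaatctgGGGTGGGGCC

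Neither window held the response element or the gamma-activated site. Both genes were highest on average in WT, at 5.49 ± 1.84 CPM for Tap1 and 19.2 ± 3.84 CPM for Psmb9 (SD, n = 3), but only Psmb9 separated KO from WT without overlap. The labels name no strand-marking step, but the expected counts of Tap1 and Psmb9 were whole numbers in all 8 libraries. These values thus show no read split between them. Whether reads in the shared bases were assigned to the right gene was not tested.

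The interferon-induced genes gave the widest differences between genotypes. Ubd encodes FAT10, a ubiquitin-like modifier that sends proteins to the proteasome. It had 0, 6 and 0 counts in G77S, 341 and 191 counts in KO, and 0, 0 and 3 counts in WT. Ubd RNA was thus found in number in the KO libraries alone, at 20.1 and 10.1 CPM, and the other 6 libraries stayed at or below 0.408 CPM. The gene passed the low-count filter through KO alone, so its tests against KO are read as description. Ubd was lower in G77S than in KO, and the log2 fold change reached -6.66 (SE 1.42, adjusted p = 0.0281). The call was lost without KO replicate 1 (adjusted p = 0.146), KO replicate 2 (0.0804), G77S replicate 1 (0.0899) or G77S replicate 3 (0.0868). Without G77S replicate 2, the G77S library that held its 6 counts, the log2 fold change was -10.93 (adjusted p = 0.0371), a fitted value against libraries at 0 and no bound. In G77S against WT the ratio of counts was 2.45 (95% exact counting interval 0.523 to 15.1). In KO against WT the ratio was 246, with a 95% exact counting interval of 83.6 to 1190 that covers counting error only, and the adjusted p was 0.0838. DESeq2 called this difference.

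Ubd occupies chromosome 17, 37193892 to 37196095, plus strand. The bases before its RefSeq start (chr17:37193842-37193891, GRCm38.p6) are shown because this gene had the largest ratio in KO against WT of the set. Capitals mark the NF-kB core match at -15, the only match to the 3 motifs in its window.

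Ubd: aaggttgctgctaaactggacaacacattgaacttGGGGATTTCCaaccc

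Ube2l6 encodes the conjugating enzyme of the interferon-induced modifier ISG15. It had 12.7, 15 and 6.25 CPM in G77S, 15.6 and 53.8 CPM in KO, and 1.90, 0.0993 and 1.16 CPM in WT. Every G77S and KO library lay above every WT library, and KO replicate 2 stood highest. Ube2l6 was higher in G77S than in WT, at 11.3 ± 4.53 CPM against 1.05 ± 0.903 CPM (SD, n = 3 each), and the log2 fold change reached 3.36 (SE 0.79, adjusted p = 0.0472). The call was lost without WT replicate 2 (adjusted p = 0.078), WT replicate 3 (0.117), KO replicate 2 (0.0594), G77S replicate 1 (0.138), G77S replicate 2 (0.152) or G77S replicate 3 (0.0734), and in the fit of only these 2 groups (0.0527).

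In KO, Ube2l6 stood at 34.7 ± 27.0 CPM (SD, n = 2), a log2 fold change over WT of 4.98 (SE 0.87). Its adjusted p was 0.0641, and it fell below the threshold only without KO replicate 1 (0.0397) among the fits that leave out a library. DESeq2 called Ube2l6 higher in KO than in WT. ISG15 itself was listed at 0 in 7 of 8 libraries, with 2 counts in all. The related enzyme Ube2l3, which is not an interferon-induced gene, ranged from 692.23 to 1355.56 TPM.

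Ifi27 encodes a small interferon-inducible membrane protein. It had 0.630, 0.204 and 0.0868 CPM in G77S, 5.37 and 6.78 CPM in KO, and 2.23, 1.19 and 3.34 CPM in WT. The 3 groups did not overlap, with G77S lowest and KO highest. Ifi27 was lower in G77S than in KO, and the log2 fold change reached -4.26 (SE 1.02, adjusted p = 0.0441), on 13 counts in G77S and 219 in KO. The call was lost without WT replicate 3 (adjusted p = 0.0508), KO replicate 1 (0.104), KO replicate 2 (0.16), G77S replicate 1 (0.0658), G77S replicate 2 (0.166) or G77S replicate 3 (0.13). Over WT the log2 fold change came to -2.83 in G77S (SE 0.93, adjusted p = 0.119) and 1.42 in KO (SE 0.92, adjusted p = 0.558). DESeq2 called Ifi27 lower in G77S than in WT. Its relatives Ifi27l2a and Ifi27l2b had 0 counts in all 8 libraries.

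In TPM, which allows genes to be ranked, the order of means in G77S was B2m (467), H2-K1 (65.4), H2-D1 (36.3), Psmb9 (13.8), Ube2l6 (8.18), Tap1 (1.14), Tapbp (0.807), Ifi27 (0.627), Ubd (0.193) and Psmb8 (0). In KO it was B2m (632), Ube2l6 (17.4), H2-D1 (16.4), Ubd (15.5), H2-K1 (7.54), Ifi27 (6.98), Psmb9 (4.21), Tap1 (1.37), Tapbp (0.275) and Psmb8 (0). In WT it was B2m (247), H2-D1 (44.5), H2-K1 (19.2), Psmb9 (18.6), Ifi27 (3.09), Tap1 (2.05), Ube2l6 (0.657), Tapbp (0.370), Ubd (0.05) and Psmb8 (0.0100). In KO the neighbours Ube2l6, H2-D1 and Ubd differed by less than the SD of 12.7 TPM of Ube2l6. H2-K1 and Psmb9 in WT likewise differed by less than their SDs of 5.26 and 4.92 TPM. Other neighbours also lay within an SD, so their order is not resolved. For instance, H2-K1 and H2-D1 in G77S differed by less than the H2-K1 SD of 37.0 TPM. Tap1, Tapbp and Ifi27 in G77S differed by less than the Tap1 SD of 0.806 TPM. The same held for H2-K1 and Ifi27 in KO (H2-K1 SD 3.89 TPM) and for Ifi27 and Tap1 in WT (Ifi27 SD 1.46 TPM).

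The wider pathways were described through 168 genes in 10 lists, chosen with earlier results of these data known, of which 84 were tested and 43 had 0 counts in all libraries. In KO against WT, 0 were called by edgeR's quasi-likelihood test, 14 of the 84 had an unadjusted p under 0.05 (13.0% of all genes), and DESeq2 called 6 (5.19% of all genes). In G77S against WT, 1 was called higher (Ly6a, among 15 tested interferon-induced genes) and 1 lower (Sec61b, among 13 of peptide processing and loading), or 2.38% beside 3.39% of all genes. There 19 of the 84 had an unadjusted p under 0.05 (20.0% of all genes), and DESeq2 called 10 (11.8%). In G77S against KO, 1 was called lower (Ifnar2, among 17 of interferon signalling), or 1.19% beside 4.19%. There 12 of the 84 had an unadjusted p under 0.05 (20.7% of all genes), and DESeq2 called 7 (13.3%). Median log2 fold changes over the 84 were -0.07, 0.01 and 0.21 in these comparisons.

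Ly6a, the interferon-inducible surface protein known as stem cell antigen Sca-1, had 345.18, 410.20 and 122.57 TPM in G77S, 60.33 and 99.91 TPM in KO, and 21.12, 4.14 and 31.30 TPM in WT. The 3 groups did not overlap on this scale. Its log2 fold change on the CPM scale in G77S over WT came to 3.75 (SE 0.69, adjusted p = 0.017), and the call was lost without G77S replicate 1 (0.0642) or G77S replicate 2 (0.0697). Sec61b, a subunit of the endoplasmic reticulum translocon, stood at 311.27, 316.01 and 352.93 TPM in G77S, 508.26 and 439.85 TPM in KO, and 629.97, 598.44 and 618.74 TPM in WT. Its log2 fold change on the CPM scale in G77S over WT reached -0.98 (SE 0.20, adjusted p = 0.0271), a call lost without WT replicate 2 (0.077), WT replicate 3 (0.0878), or G77S replicate 1 (0.0917), 2 (0.147) or 3 (0.0826). Ifnar2, a subunit of the type I interferon receptor, had 9.96, 12.35 and 10.25 TPM in G77S, 38.43 and 39.67 TPM in KO, and 24.04, 17.46 and 9.97 TPM in WT. It was lower in G77S than in KO, where the log2 fold change reached -2.34 on the CPM scale (SE 0.37, adjusted p = 0.00895), and it lost the call without KO replicate 2 (0.0569).

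The interferons themselves were hardly seen. Of 13 interferon and cytokine genes, 9 had 0 counts in all libraries, including Ifnb1 and Ifng. Among the others, Ifnk ranged from 0 to 1.90 TPM, and Il6 had 6.37, 6.75 and 16.40 TPM in G77S, 2.34 and 1.15 TPM in KO, and 6.49, 36.30 and 100.19 TPM in WT. Of 50 other interferon-induced genes, 19 had 0 counts in all libraries, Mx1, Mx2 and Ifit2 among them, and 15 were tested. Besides Ly6a, DESeq2 called Bst2 and Xaf1 higher and Oas1a lower in G77S than in WT, which edgeR's quasi-likelihood test did not. Bst2 had 65.72, 49.28 and 88.41 TPM in G77S and 1.80, 17.00 and 12.67 TPM in WT. Xaf1 had 10.82, 9.73 and 9.36 TPM in G77S and 0.92, 0.67 and 2.96 TPM in WT. Oas1a had 0, 0.67 and 0.30 TPM in G77S and 6.37, 2.72 and 3.61 TPM in WT. Ddx58, encoding the RNA sensor RIG-I and picked with its values in view, had 0.64, 0.22 and 0 TPM in G77S, 4.25 and 3.15 TPM in KO, and 0, 0 and 0.01 TPM in WT. Its adjusted p in KO against WT was 0.058, on 454 counts in KO and 1 in WT, a ratio of 629 with a 95% exact counting interval of 112 to 24900. DESeq2 called it. Because the gene was picked by its values and was counted mainly in KO, these figures describe it and are no independent support for a difference.

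The other lists held no gene called by edgeR's quasi-likelihood test. Of 20 class I heavy chain relatives found in the tables, 7 were tested and 6 had 0 counts throughout. Some of the 7 passed the low-count filter through G77S alone, such as H2-Bl, with 39 counts in G77S and 0 in KO and WT, so no median over them is given. The most abundant were H2-Q2, at 6.32, 0.84 and 1.35 TPM in G77S, 0 in both KO libraries, and 0.38, 0.60 and 0 TPM in WT, and Fcgrt, which carries antibodies across cells, at 0 to 2.57 TPM over all libraries. Of the MHC class II list, H2-Oa had 8.48, 5.22 and 8.63 TPM in G77S, 2.74 and 6.18 TPM in KO, and 13.54, 29.78 and 16.93 TPM in WT, where its adjusted p was 0.1 in G77S against WT and 0.206 in KO against WT, both called lower by DESeq2. Cd74, the class II invariant chain, lay between 0.30 and 12.93 TPM, and DESeq2 called it in G77S against KO, as it did H2-Q2. Among sensors and NF-kB factors, the kinase gene Tbk1 lay between 3.68 and 11.56 TPM, the nuclease gene Trex1 between 3.38 and 9.81, and the inhibitors Nfkbia and Nfkbib between 3.88 and 11.65 and between 13.45 and 31.93. Nub1, whose protein binds FAT10, lay between 35.20 and 102.14 TPM, without a difference that passed.

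**Figure D4:**
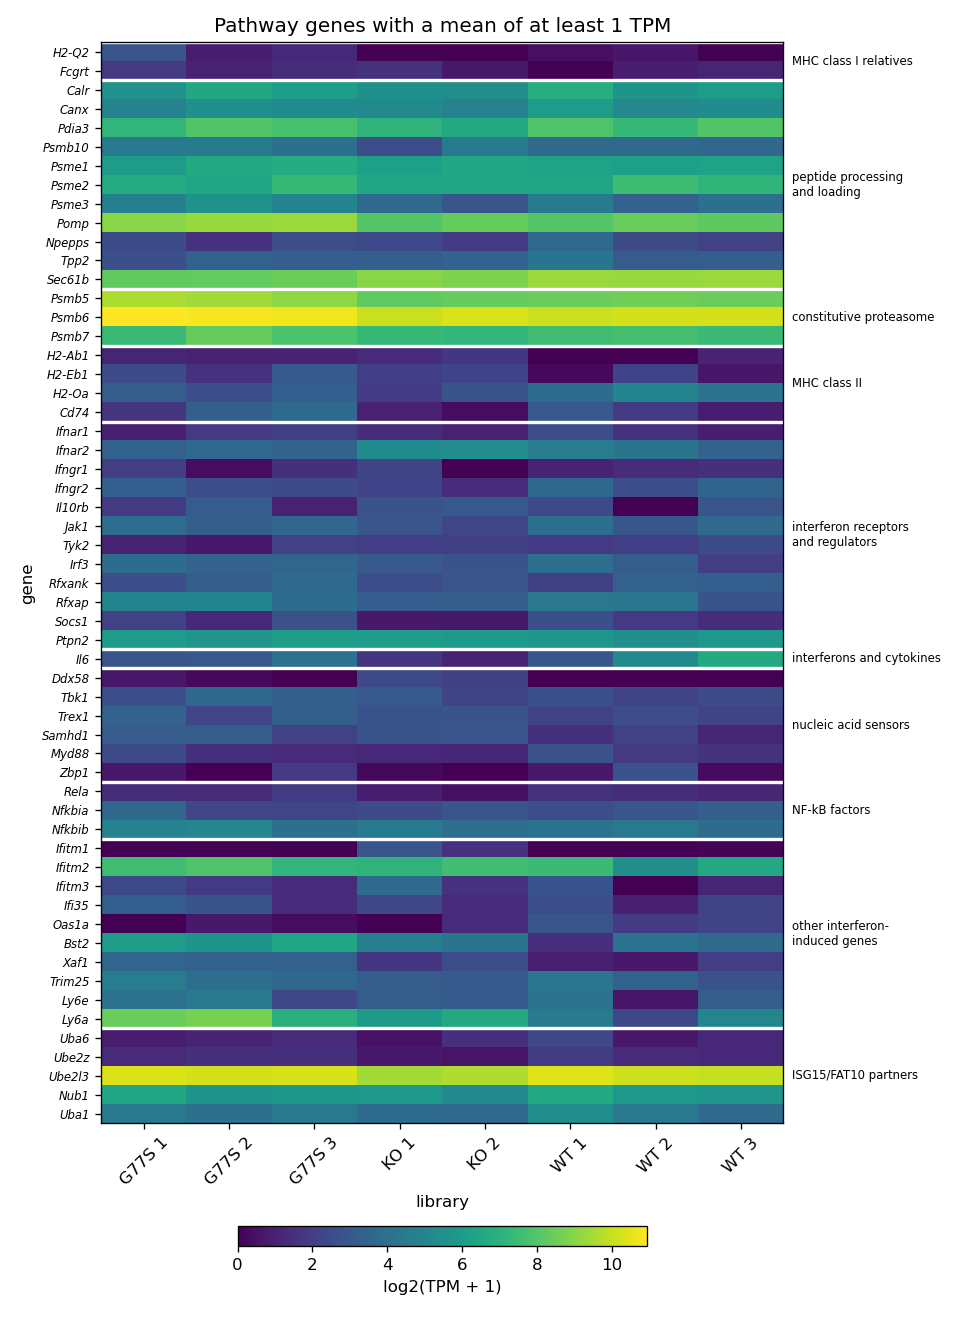
log2(TPM + 1) of the 57 tested pathway genes with a mean of at least 1 TPM (rows, grouped by list) in the 8 libraries (columns, G77S, KO and WT). Ly6a is brightest in the G77S columns, Ifnar2 and Ddx58 in the KO columns, and constitutive proteasome genes are bright throughout.

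Markers of other cell types were checked because MHC genes are abundant in blood cells. Of 13 leukocyte markers, 7 were detected in G77S, 10 in KO and 9 in WT, and their summed level was 15.7 to 27.2 TPM in G77S, 11.5 to 14.9 TPM in KO and 23.3 to 107 TPM in WT. Most of it was Cd68, at 103.90 TPM in WT replicate 1, while the defining gene Ptprc reached at most 0.03 TPM. Markers of cumulus and granulosa cells and of fibroblasts summed to at most 0.06 TPM, erythroid markers to 1.48 to 5.96 TPM in G77S, 0.31 to 1.18 TPM in KO and 1.22 to 2.91 TPM in WT. Uterine and oviduct markers summed to 0.92 to 1.51 TPM in G77S, 2.07 to 2.17 TPM in KO and 0.08 to 4.5 TPM in WT, nearly all of it Muc1, while Ltf, Lcn2 and Foxj1 were at 0 in all libraries. Embryonic lineages were present, with trophectoderm markers at 2900 to 3160 TPM in G77S, 3830 to 6930 TPM in KO and 3930 to 7550 TPM in WT. Nearly all of this sum was Krt18 and Krt8. Gata3, by contrast, had 35.68, 42.58 and 37.31 TPM in G77S, 19.44 and 13.24 TPM in KO, and 46.33, 29.76 and 18.64 TPM in WT. In G77S against KO, 4 of 6 trophectoderm markers had a positive log2 fold change and 2 a negative one. In G77S against WT, 1 was positive and 5 were negative. Epiblast markers summed to 102 to 148 TPM in G77S, 75.9 to 77 TPM in KO and 96.3 to 150 TPM in WT, and Sox2 was at 0 in WT. The sum hides opposite directions. Nanog had 56.22, 36.95 and 91.34 TPM in G77S, 20.47 and 9.37 TPM in KO, and 142.31, 102.96 and 86.07 TPM in WT. Tdgf1 had 46.01, 28.11 and 25.25 TPM in G77S, 51.53 and 61.07 TPM in KO, and 0.12, 0.09 and 5.66 TPM in WT. Pou5f1 had 22.54 to 41.18 TPM in G77S, 1.85 and 2.23 TPM in KO, and 2.89 to 6.11 TPM in WT. Primitive endoderm markers summed to 10.3 to 14.1 TPM in G77S, 24.9 to 30.0 TPM in KO and 5.10 to 7.94 TPM in WT. In KO the sum was mostly Aqp8, at 17.38 and 21.86 TPM, which alone made the KO sum highest. All 5 tested markers of this list had a positive log2 fold change in KO against WT and in G77S against WT. Only Aqp8 was called higher in each, where 0.0788% and 1.3% of all genes were called higher. Sox17, Sox7, Pdgfra and Aqp8 had at most 0.04 TPM in WT, so they passed the low-count filter through the mutant libraries. Their positive signs are therefore read as description. Gata4, Sox17 and Sox7 were at 0 in WT and at most 0.76 TPM in KO. Gata6 had 7.86, 11.07 and 9.31 TPM in G77S, 6.20 and 6.69 TPM in KO, and 7.86, 5.32 and 5.10 TPM in WT. In G77S against WT, 1 trophectoderm marker was called lower and 1 epiblast marker higher, where 2.09% and 1.3% of all genes were called. The same counts held against KO (2.43% and 1.76% of all genes), where Aqp8 was called lower as well. The part of lineage makeup in the results on the 10 genes was not tested. In whole blastocysts, fewer cells of a type and less RNA per cell cannot be told apart.

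The standardised log2 CPM of the 9 tested genes, averaged per library, was 0.31, -0.19 and -0.25 in G77S, 0.04 and 0.04 in KO, and 0.27, -0.20 and -0.01 in WT. G77S replicate 1 and WT replicate 1 stood highest, and these also had the lowest summed level of Y-linked coding genes, at 86.4 CPM in G77S replicate 1 and 36.5 CPM in WT replicate 1 beside 265 to 439 CPM in the other libraries. Embryo sex was not tested against these genes. As a description over 8 libraries that share depth and preparation, the genes most like this average by Pearson r were Jpx (0.928), Gm12992 (0.903), Lhfpl2 (0.898), Hs1bp3 (0.895), Itpr3 (0.894) and Rbm3 (0.889). Since the 9 genes went in different directions, the average hides most of their variation.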

How the data were processed

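The authors deposited 1 RSEM gene table per library, and per the file headers these hold expected counts, TPM, FPKM, length and effective length. Expected counts and TPM values as deposited were used, and lengths served to read the fragment length. Per the submitters' processing notes, the tools were RSEM 1.3.1, STAR 2.6.1c, DESeq2 1.42.1 and Trim Galore 0.4.5, and the build was mm10 (GRCm38). The annotation used for counting is not given in the sources used here. GENCODE M21 gave symbols for 55230 of 55471 identifiers (99.6%).

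Expected counts were rounded to whole numbers and tested with edgeR 4.0.16 in R 4.3.3, with TMM scaling, the group-wise low-count filter, 1 mean per genotype over all 8 libraries, quasi-likelihood F tests and p-values adjusted by Benjamini-Hochberg over 13953 genes (calls at an adjusted p under 0.05). SE is the size of the log2 fold change divided by the square root of F. Ratios of counts carry a 95% exact counting interval. Amplified reads carry no molecular identifiers, so intervals and limits cover counting error only.

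The members and lists were chosen with earlier results of these data known. Named genes are all members, up to 4 called genes of each list (or, with none, the 2 most abundant as values), the constitutive proteasome counterparts and the 6 genes most like the average; any other name was chosen after their values were seen. Replicate numbers did not pair the libraries (correlations of deviations -0.0207 to 0.0712). RefSeq promoter windows matched 9 of 10 genes. The test was checked on simulated counts with planted changes. Alternatives were leaving out each library, DESeq2 1.42.0, a block for the replicate number, a fit of the 2 groups alone, no filter or at least 5 CPM in 2 libraries, RLE scaling, and limma 3.58.1 on log2(TPM + 1) and log2(TPM + 0.1).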

Additional observations from a re-analysis of the deposited data

How the results depend on the processing

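Of the 9 genes, 0, 1 and 3 were called in KO versus WT, G77S versus WT and G77S versus KO, of the pathway genes 0, 2 and 1, and of all genes 17, 473 and 585. Leaving out 1 library gave 0 to 1, 0 to 1 and 0 to 3 of the 9, 0 to 1, 0 to 4 and 0 to 3 pathway genes, and 0 to 42, 86 to 638 and 161 to 949 of all genes. The settings tested different numbers of genes, 13953 in the main fit, 22958 with no filter, 8664 with the stricter filter and 11827 to 12896 with only the 2 groups. With no filter Psmb8 was tested too and was not called. In KO versus WT, calls of the 9, the pathway genes and all genes were 4, 4 and 547 with no filter, 2, 1 and 60 with the stricter filter, 5, 6 and 650 with DESeq2, 2, 2 and 95 on log2(TPM + 1), and 2, 2 and 86 on log2(TPM + 0.1). The fit of the 2 groups gave 1 pathway gene and 11 of all genes there. In G77S versus WT they were 3, 9 and 1336 with no filter, 3, 10 and 1538 with DESeq2, and 0 of the 9 with only the 2 groups. The stricter filter called 746 of all genes, and TPM called 11 pathway genes at either pseudocount with 1466 and 1307 of all genes. In G77S versus KO, pathway genes and all genes were 7 and 1411 with no filter, 7 and 1700 with DESeq2, 4 and 1009 with the 2 groups, 11 and 1849 on log2(TPM + 1), which called 5 of the 9, and 11 and 1744 on log2(TPM + 0.1). The stricter filter gave 2 pathway genes. The cause of these shifts was not tested. The replicate block gave 8 calls among all genes in KO versus WT and 0 of the 9 in G77S versus WT (Ube2l6, adjusted p = 0.0777), and Ifi27 lost its call in G77S versus KO (0.0734). The shared number alone does not pair the libraries. Tap1 in G77S versus KO was -0.02 under RLE scaling and DESeq2, -0.01 with no filter, -0.07 and -0.05 on TPM, and -0.57 to 0.99 over left-out libraries. Tapbp in KO versus WT ran from -1.16 to 0.57, and Ubd in G77S versus WT from -2.99, without G77S replicate 2, to 4.17. TPM shifts the median of all genes by 0.23 and 0.41 in G77S versus WT, by 0.34 and 0.59 in G77S versus KO, and by -0.12 and -0.18 in KO versus WT. Calls in G77S versus WT were 1178 higher and 288 lower on log2(TPM + 1), beside 182 and 291, and in G77S versus KO 1543 and 306, beside 246 and 339. The stricter filter left out Tapbp and Ifi27, which therefore have no value there. Over all alternatives, the 9 genes with Ly6a, Sec61b, Ifnar2 and Ddx58 kept direction and side of the threshold in 178 cases in KO versus WT, 182 in G77S versus WT and 165 in G77S versus KO. They passed it newly in 26, 6 and 14 cases, lost it in 0, 15 and 19, and turned sign in 2, 1 and 8. In KO versus WT no call could be lost, since none of these genes was called in the main fit. Counts were low for Psmb8 (at most 1 per library), for Ubd outside KO (at most 6) and for Ifi27 in G77S (13 in all), which limits the precision of their ratios.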
